A study of Mus musculus with 6 samples.

Results

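The comparison set RNA recovered on control beads against the RNA that went into the pulldown. It used 3 of the 6 arrays of the series, chosen by their labels. On 2 arrays the RNA came off protein-G beads loaded with non-immune IgG, antibody with no chosen target, and on 1 array it was total input RNA. The other 3 arrays held RNA pulled down with anti-myc antibody against transgenic HuD and entered the tests only to estimate the spread between arrays. All 6 arrays were labelled as mouse hippocampus. The labels used here give no strain, age or sex, do not name the promoter of the HuD transgene, and do not say whether the IgG and input RNA came from transgenic mice or whether each array had its own animals or its own preparation. The p-values below therefore cover no more than the array-to-array spread, and that spread may be technical. The 3 groups are called IgG, input and HuD.

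An immunoprecipitation with non-immune IgG measures what a bead collects without a specific antibody target. RNA can be carried along by proteins that adhere to protein G, plastic or IgG, and large ribonucleoprotein bodies can sediment with the beads. In neurons many long noncoding RNAs and intron-containing transcripts stay in the nucleus, while synaptic and dendritic messenger RNAs travel in granules, so these classes were examined separately from glial and housekeeping messages.

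Each array carried 45101 probe sets, groups of short probes that read a stretch of a transcript. Of these, 64 were manufacturer's controls, and 22518 of the remaining 45037 were bright enough to be tested, with a mean log2 value over all arrays above the median of all probe sets. Signals are intensities scaled by the authors to a common trimmed mean of 150.0, so every value is relative to the overall brightness of its array. Differences are on the scale log2(signal + 32), which compresses changes of dim probe sets. An error after ± is the standard error of the log2 difference. The IgG arrays differed at least 2-fold from each other in 2215 tested probe sets, with an SD of the log2 difference of 0.60. IgG array 1 differed at least 2-fold from the input in 2396 and IgG array 2 in 1574. Results are therefore described by whether both IgG arrays lay on the same side of the input.

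Elavl4, which encodes HuD, served as the check of the labels. Its 3 tested probe sets read 425, 403 and 597 in the input. They read 337, 300 and 766 on IgG array 1 and 228, 233 and 642 on IgG array 2. The HuD arrays spanned 1118 to 1611, 591 to 817 and 1689 to 2294 for the same probe sets. The HuD arrays were thus above both the IgG arrays and the input in all 3 probe sets, whereas the IgG means lay between -0.56 and 0.22 log2 units from the input (limma, adjusted p between 0.703 and 0.901). Hippocampal markers were present in the input, with Wfs1, a marker of CA1 pyramidal cells, at 778 and Neurod6 at 717. Prox1, a marker of dentate granule cells, read 9.80 on its tested probe set.

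Control probe sets also differed between the pulldown arrays and the input array. Hybridization controls, labelled transcripts added at a fixed amount before hybridization, were 1.16 log2 units higher on IgG array 1 than on the input array and 1.44 higher on IgG array 2 (means of 18 probe sets). On the HuD arrays they were 0.66, 1.49 and 0.80 higher. Centring each array on these controls instead of its overall brightness moved the median IgG difference of all tested probe sets to -1.29, so "higher" and "lower" below mean relative to all probe sets. The 5′ control probe sets of actin and Gapdh averaged 0.58 and 1.30 log2 units below the input on IgG arrays 1 and 2, while their 3′ probe sets averaged -0.08 and -0.06. The part of these differences in the results was not tested.

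**Figure D1:**
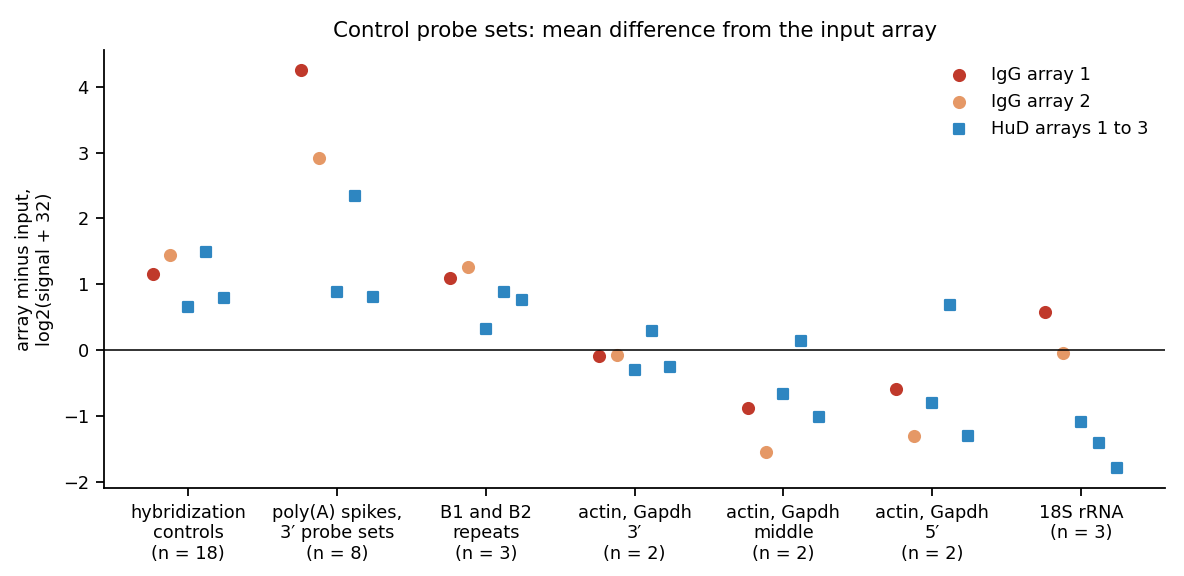
Mean difference from the input array of 7 kinds of control probe set on the log2(signal + 32) scale (vertical axis), 1 point per array. Red and orange circles are IgG arrays 1 and 2 and blue squares are the HuD arrays; the poly(A) spikes lay 4.25 and 2.92 above the input on the IgG arrays, and on both IgG arrays actin and Gapdh lay closer to the input at the 3′ end than in the middle or at the 5′ end.

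Among tested probe sets, 14567 (64.7%) had both IgG arrays on the same side of the input, 7366 above it and 7201 below it, and the median difference over all 22518 was 0.004. On this scale the larger differences were mostly gains. On both IgG arrays, 468 probe sets were at least 2-fold above the input (2.08% of those tested, from 207 named genes) and 94 were at least 2-fold below it (0.417%, from 83 named genes). Of the 468 gained probe sets, 301 read below 32 in the input. In 261 of them the input lay below the brightness filter, which they passed only through the pulldown arrays where they were high, so they had to differ and the share of 2.08% is raised by the filter. Over all 45037 probe sets, 502 were gained (1.11%), and their median input signal of 17.6 was close to the 20.1 of all. Centring on the hybridization controls, a setting chosen after seeing the data, turned the counts round, to 9 higher and 11986 lower. The differences compare RNA recovered on beads with input RNA, and they measure neither numbers of cells of a type nor RNA per cell.

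The limma test, with Benjamini-Hochberg adjustment over all tested probe sets, called 53 probe sets higher (0.235%) and 1 lower (0.00444%), with adjusted p between 0.0140 and 0.0464. With centring on the hybridization controls the counts were 0 higher and 1829 lower. Of the 53, 29 had a gene symbol and came from 24 genes, and 24 had none. At an unadjusted p below 0.05 there were 1484 higher and 661 lower. A probe set with an input below the brightness filter, a signal of 22.9, was tested only because the pulldown arrays were high. Its p-value is therefore no independent support for a gain. The calls depended on the arrays that set the spread: 0 probe sets were called in either direction without HuD array 1, without HuD array 2 or when all 45037 probe sets were tested. Without IgG array 1 there were 28 higher and 1 lower, and without IgG array 2 there were 515 and 61. The 53 probe sets were above the input on every IgG array used in these fits. The rule for a call had fixed that in advance, since these settings change no IgG minus input difference of an array.

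Long noncoding RNAs formed the list with the highest share of gains. The list held 39 such RNAs, most of them nuclear or neuronal, of which 32 were on the array and 25 had tested probe sets, 56 in all. It was chosen with earlier results of these data known, so its shares are no independent support for a property of the class. Both IgG arrays were above the input for 38 of the 56 probe sets and below it for 7. At least a 2-fold gain on both arrays was seen in 18 (32.1%, from 7 genes), beside 2.08% of all tested probe sets, and 8 were called higher by limma beside 0.235% of all. The list median was 0.73 (0.85 on IgG array 1 and 0.66 on array 2), beside 0.004 for all probe sets. With dim probe sets included the median was 0.37, and 20 of 90 probe sets were gained (22.2%), beside 1.11% of all on the array. Counted by gene, 18 of the 25 genes had a median above 0, compared with 45.8% of all 11957 genes tested.

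Meg3, a maternally expressed RNA of the imprinted Dlk1-Dio3 region, accounted for the most called probe sets. All 11 of its probe sets were above the input on both IgG arrays, by 1.20 to 2.67 log2 units, 9 of them at least 2-fold on both. The leading probe set read 365 in the input, 3076 on IgG array 1 and 2013 on IgG array 2, a difference of 2.67 ± 0.36 (limma, adjusted p = 0.0215). On the HuD arrays the same probe set read 758, 781 and 716, below both IgG arrays and above the input. Limma called 4 Meg3 probe sets higher, and the other 3 had differences of 2.47, 2.39 and 2.25. Rian, a noncoding RNA from the same imprinted region, read 32 in the input and 296 and 264 on the IgG arrays on its leading probe set (2.28 ± 0.38, limma adjusted p = 0.0366). Of its 4 probe sets, 3 were above the input on both arrays and 1 was split, reading 153 in the input and 114 and 412 on the IgG arrays. Mirg, the microRNA host of that region, had 1 tested probe set, at 10.02 in the input and 43.9 and 34.1 on IgG (0.75 ± 0.33). The Mirg probe set passed the brightness filter only through the pulldown arrays. Together 15 of the 16 probe sets of these 3 genes were above the input on both arrays.

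Malat1, an abundant RNA of nuclear speckles, was above the input on both IgG arrays in all 6 tested probe sets. A probe set at 53.3 in the input read 703 and 390 on the IgG arrays (2.71 ± 0.46, limma adjusted p = 0.0382), and another rose from 355 to 2505 and 1779 (2.47 ± 0.42, adjusted p = 0.0379). The IgG arrays differed from each other in size here. A further Malat1 probe set read 38.3 in the input, 1219 on IgG array 1 and 272 on IgG array 2, and with that spread its difference of 3.13 ± 0.72 was not called (limma, adjusted p = 0.122). Miat, a nuclear RNA of neurons also known as Gomafu, read 351 in the input and 1876 and 1344 on the IgG arrays (2.08 ± 0.35, limma adjusted p = 0.0382).

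Several further members lay above the input without passing the test. Snhg11, a neuronal RNA, read 375 in the input and 2716 and 1136 on IgG (2.14 ± 0.58, limma adjusted p = 0.182). Ftx, from the X-inactivation centre, read 29.5 in the input and 140 and 164 on IgG (1.58). Kcnq1ot1, an imprinted antisense RNA, read 4.71 in the input and 97.7 and 39.0 on IgG (1.39). Kantr had 1 of 4 probe sets at least 2-fold higher on both arrays, and Snhg14 had probe sets at 1.00 and 0.71.

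Not every noncoding RNA was gained. Tug1 had 0 of 3 probe sets above the input on both arrays, and its lowest read 301 in the input and 79.9 and 99.2 on the IgG arrays (-1.46 ± 0.37, limma adjusted p = 0.152). Sox2ot lay at -0.46 and Xist at -0.30. Neat1, the scaffold of paraspeckles, was dim, with its 2 probe sets at 20.8 and 16.8 in the input and differences of 0.49 and 0.40. Both Neat1 probe sets passed the brightness filter only through the pulldown arrays. Norad, a long noncoding RNA known from the cytoplasm, was the brightest member in the input at 6980 and read 10033 and 9281 on IgG (0.47 ± 0.29). Meg3 and Malat1 together held 17 of the 56 probe sets and 12 of the 18 gains. The 39 probe sets of the other 23 genes had 21 above and 7 below the input on both arrays, 6 gains of at least 2-fold (15.4%) and a median of 0.37.

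**Figure D2:**
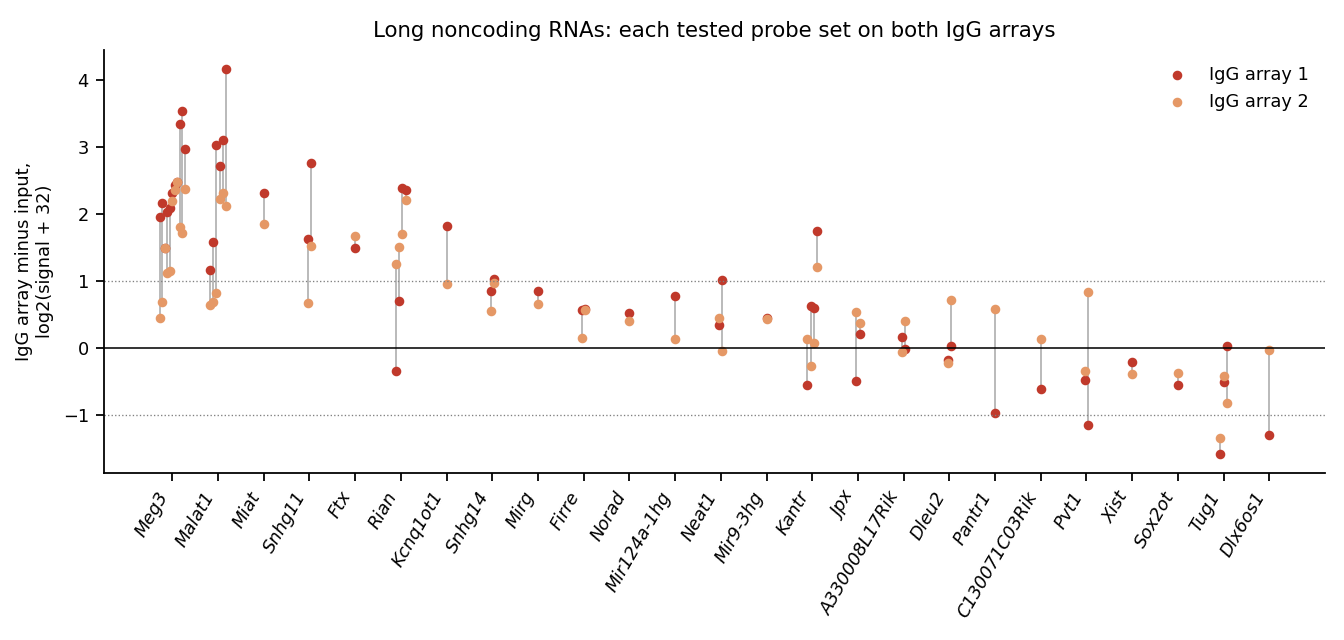
Difference from the input on the log2(signal + 32) scale (vertical axis) for the 56 tested probe sets of 25 long noncoding RNAs, ordered by gene median. Each grey line joins IgG array 1 (red) and IgG array 2 (orange) for 1 probe set, and dotted lines mark 2-fold; all points of Meg3 and Malat1 are above 0, and the lowest Tug1 probe set is below the lower dotted line on both arrays.

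Across the whole annotation, probe sets for RefSeq long noncoding RNAs had 24 gains of at least 2-fold on both arrays among 418 tested (5.74%), and 1 loss. Outside the 2 noncoding lists used here, 346 such probe sets had 6 gains (1.73%, beside 2.08% of all tested) and a median of 0.08. Most gains of this class were thus in the named list, and the rest of the class was near the share of all. Protein-coding genes had 201 gains (1.05%) and 85 losses (0.443%) among 19175 probe sets, with a median of -0.03. Pseudogenes had 5 gains among 49 (10.2%). Of probe sets with clone-type symbols, 13 of 632 were gained (2.06%). Without the brightness filter the gained shares were 1.67% of 1679 long noncoding, 0.656% of 32756 protein-coding and 2.42% of 207 pseudogene probe sets, and 0.512% of the 1564 long noncoding ones outside those lists, beside 1.11% of all.

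Probe sets without a gene symbol formed the largest group of gains. Of 2290 tested, 1353 were above the input on both IgG arrays and 388 below, 235 were at least 2-fold above on both (10.3%) and 7 at least 2-fold below, and their median was 0.31. They supplied 24 of the 53 called rises. The largest of these read 82.5 in the input, 1185 on IgG array 1 and 992 on IgG array 2, a difference of 3.28 ± 0.35 (limma, adjusted p = 0.0140). On the HuD arrays it read 335, 284 and 322. Unnamed probe sets were mostly dim, and many entered the tests only through arrays on which they were high, so shares of gains were also counted without the filter. Where the input read under 32, 2.61% of 7934 unnamed probe sets and 0.725% of 15453 protein-coding ones were gained, beside 1.31% of all. Where it read 32 or more the shares were 3.51% of 1226 and 0.595% of 17303, beside 0.862% of all. What transcripts the unnamed probe sets read was not analysed here.

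**Figure D3:**
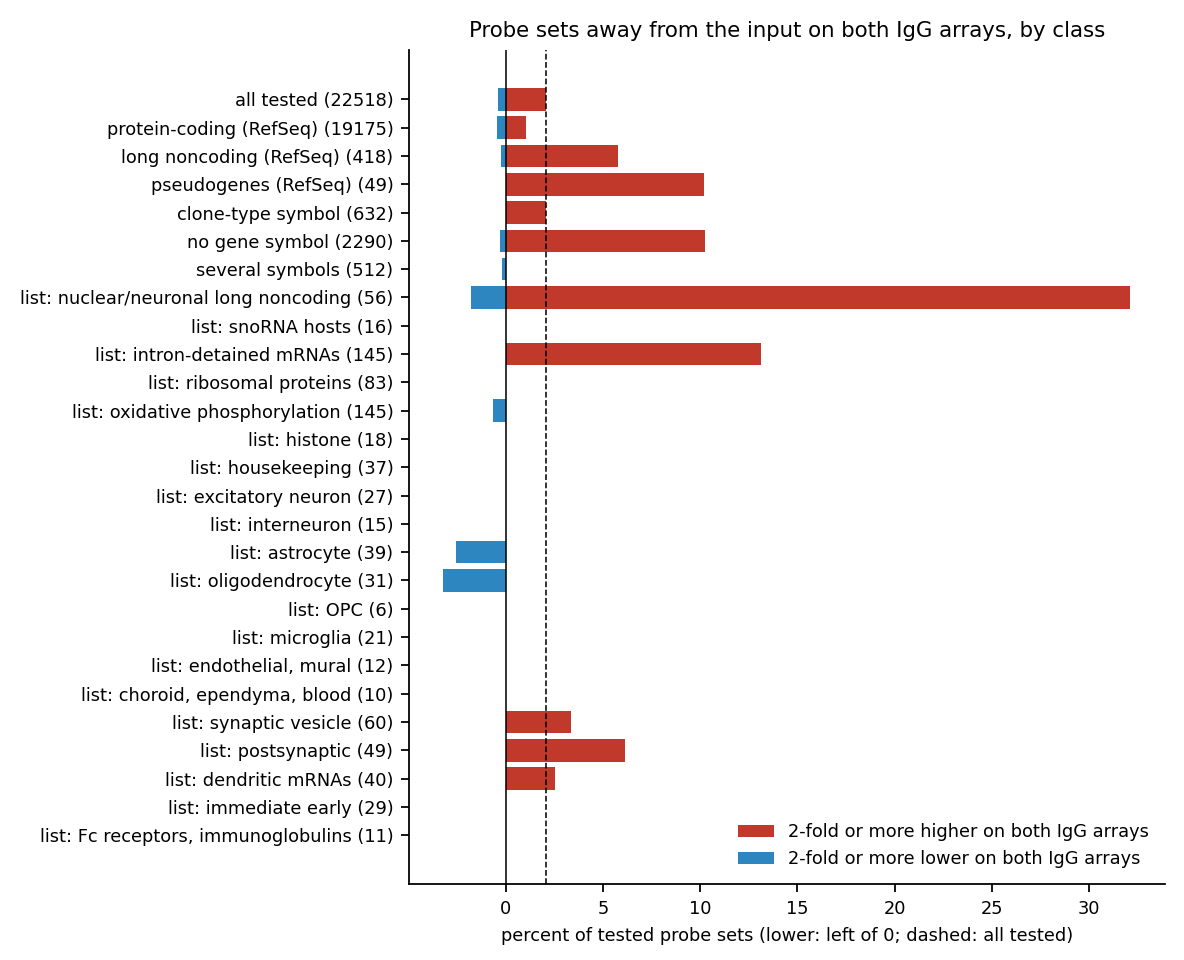
Share of tested probe sets at least 2-fold above the input on both IgG arrays (red, to the right) or at least 2-fold below it on both (blue, to the left), in percent, by annotation class and gene list, with the number of tested probe sets in brackets. The dashed line marks 2.08%, the share of gains among all tested probe sets; the long noncoding list stands at 32.1% and the intron-detained list at 13.1%.

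Messenger RNAs known for detained introns or nuclear retention, many of them encoding splicing factors, were the other list rich in gains. This list too was chosen with earlier results of these data known. Of 145 tested probe sets from 44 genes, 86 were above the input on both IgG arrays and 21 below. At least a 2-fold gain on both arrays was seen in 19 (13.1%, from 14 genes) and no such loss, and the list median was 0.36 (0.48 and 0.24 on the separate arrays). With dim probe sets included, 19 of 188 were gained (10.1%). Among all tested probe sets, 32.71% lay above the input on both arrays, 31.98% lay below it, and 2.08% were gained. With dim ones included, 1.11% of all were gained. In the list limma called 3 higher, beside 0.235% of all tested. Tia1, an RNA-binding protein of stress granules, read 17.6 in the input and 328 and 189 on the IgG arrays on 1 probe set (2.51 ± 0.40, adjusted p = 0.0322). Luc7l2, a splicing factor of the U1 particle, read 82.1 in the input and 523 and 436 on IgG (2.16 ± 0.35, limma adjusted p = 0.0338). Rbm25, another splicing regulator, read 13.4 in the input and 134 and 160 on IgG (1.98, limma adjusted p = 0.0379). The Tia1 and Rbm25 inputs lay below the brightness filter, which these probe sets passed only through the pulldown arrays.

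Other members of that list were high on both IgG arrays without a call. Hnrnpa2b1, an RNA transport and splicing protein, read 149 in the input and 844 and 972 on IgG on its highest probe set (2.38 ± 0.44, limma adjusted p = 0.0566). Srrm2, a scaffold of nuclear speckles, read 685 in the input and 4682 and 1899 on IgG (2.07 ± 0.47, limma adjusted p = 0.116). Rbm39 had 4 of 8 probe sets at least 2-fold higher on both arrays and 7 of 8 above the input. Among the 4, those at 5.56, 4.18 and 4.04 in the input passed the brightness filter only through the pulldown arrays. The gains were again not shared by all probe sets of a gene. Of the 5 tested Tia1 probe sets the median difference was 0.42, and of the 4 for Hnrnpa2b1 it was 0.59, with the brightest at 2155 in the input and 2222 and 1553 on IgG.

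The 15 largest called rises with a regular gene symbol included Malat1, Meg3, Tia1, the pseudogene Pisd-ps3 and 11 other protein-coding genes. Tenm2, a teneurin of synaptic adhesion, read 29.9 in the input and 649 and 263 on the IgG arrays (2.85 ± 0.46, limma adjusted p = 0.0322). Ttc3, a ubiquitin ligase, read 3.89 in the input and 191 and 221 on IgG (2.73 ± 0.35, limma adjusted p = 0.0215). This Ttc3 probe set passed the brightness filter only through the pulldown arrays. Mid1, a microtubule-associated ubiquitin ligase, read 67.2 in the input and 733 and 514 on IgG (2.70 ± 0.37). In these 3 probe sets both IgG arrays were far above the input, and the HuD arrays, between 26.8 and 313, lay between the input and IgG.

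Ion channel and signalling genes were among the same rises. Fgf14, an intracellular partner of sodium channels, read 15.2 in the input and 350 and 195 on IgG (2.64 ± 0.40). Kcnma1, the pore of the BK potassium channel, read 20.3 in the input and 280 and 210 on IgG (2.39 ± 0.33). Dock4, an activator of Rac, read 3.56 in the input and 311 and 118 on IgG (2.67 ± 0.44). Sgip1, a protein of endocytosis, read 28.1 in the input and 334 and 238 on IgG (2.39 ± 0.36). The probe sets of Fgf14, Kcnma1 and Dock4 likewise passed the brightness filter only through the pulldown arrays. Most leading rises thus began from a dim input signal. Daam1, a formin of the actin cytoskeleton, was an exception, at 1086 in the input and 8002 and 4688 on IgG (2.46 ± 0.40), as was Nucks1, a nuclear DNA-binding protein, at 584 in the input and 4603 and 2836 on IgG (2.57 ± 0.45). On the HuD arrays Nucks1 read 3108, 6729 and 4325, within or above the range of the IgG arrays. Nisch and Vps41, the latter a subunit of the lysosomal HOPS complex, rose by 2.46 and 2.44. The Nisch probe set, at 20.3 in the input, also passed the brightness filter only through the pulldown arrays. The adjusted p-values of these 15 rises ran from 0.0215 to 0.0456.

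In most genes with a gained probe set, other probe sets of the gene did not share the gain. Of 207 genes with a probe set at least 2-fold higher on both arrays, 174 had another tested probe set, and in 160 of them 1 probe set alone was gained. The 412 other probe sets of these genes had a median difference of 0.27, with 220 above and 81 below the input on both arrays, whereas the 200 gained ones had a median of 1.47. The 2-fold cut that divides them sets the direction of this contrast. The gained ones were also dimmer in the input, with a median signal of 36.0 beside 153 for the others. In 62 of the 174 genes some probe set was below the input on both arrays. Vps41 had its 2 other probe sets below the input, down to -0.94, and Kcnma1 had 3 of 5 above and 2 below. Ssr3, a subunit of the translocon-associated complex, was the only gene with probe sets at least 2-fold away in opposite directions, at 1.54 and -1.24. Meg3, with 9 of 11 probe sets gained, was an exception to this pattern. Which part of a transcript each probe set reads was not analysed here.

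**Figure D4:**
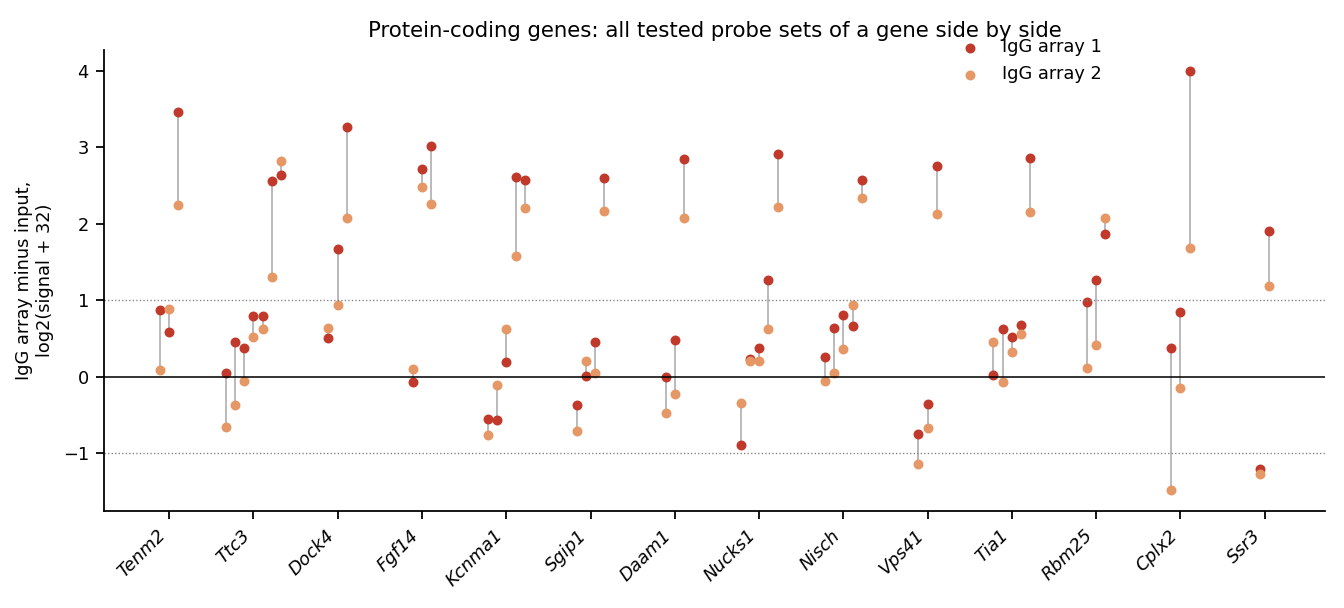
Difference from the input on the log2(signal + 32) scale (vertical axis) for every tested probe set of 14 protein-coding genes, with IgG array 1 in red and IgG array 2 in orange joined for each probe set. In Tenm2, Daam1, Vps41 and Tia1 a single probe set stands above 2 on both arrays while the others lie near or below 1, and Ssr3 has 1 probe set above and 1 below the input.

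Losses were fewer and smaller. Arhgap26, a GTPase-activating protein, held the only probe set that limma called lower. It read 305 in the input, 33.4 on IgG array 1 and 20.6 on IgG array 2, and fell by 2.52 on the log2 scale (SE 0.36, adjusted p = 0.0215). The HuD arrays read 95.9, 154 and 114, between IgG and input. The other 2 tested Arhgap26 probe sets were at 0.59 and -0.01, so the loss was seen in 1 of 3.

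The next 14 losses by p-value were not called, with limma adjusted p from 0.0711 to 0.146. Ncan, the brain proteoglycan neurocan, read 744 in the input and 218 and 187 on IgG on 1 of its 3 probe sets (-1.73 ± 0.34). Elmo1, a partner of Dock proteins in engulfment, read 913 in the input and 246 and 293 on IgG (-1.65), while its other probe set lay at 0.63. Both arrays were well below the input in these probe sets, and the HuD arrays, between 1067 and 1543, were above it. Ctsb, the lysosomal protease cathepsin B, had 4 of 4 tested probe sets below the input on both arrays, from -1.66 to -0.53. Its lowest read 378 in the input and 110 and 87.5 on IgG. Kcnip4, a potassium channel subunit, and Hsdl2 had 2 of 2 probe sets below the input. Among the rest was Prkar1b, a regulatory subunit of protein kinase A, at -1.54 with 4 of 5 probe sets below the input. Akap5, a postsynaptic anchor of that kinase, lay at -1.60 on its lowest probe set and 0.18 on its highest. Ythdf1, a reader of methylated adenosine in RNA, ran from -1.57 to 0.06 and Me1, malic enzyme, from -1.69 to 0.03. Pla2g7 and the lowest probe sets of Pdzd11, Use1, Serinc1 and Nxph1 lay between -1.55 and -1.23. Pla2g7 had 1 tested probe set. The highest of Pdzd11, Use1, Serinc1 and Nxph1 lay at 0.30, -0.03, 0.88 and -0.05.

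Markers of glia and vessels were below the input on both arrays in 55 of 119 probe sets (46.2%), above it on both in 22 and split in 42, beside 31.98% below it among all tested probe sets, and none was called. Astrocyte markers had 4 of 39 probe sets above and 20 below the input on both arrays and a median of -0.37 (-0.43 and -0.13 on the separate arrays). Slc1a3, the glial glutamate transporter GLAST, read 355 in the input and 123 and 121 on IgG on its lowest probe set (-1.33 ± 0.50, limma adjusted p = 0.398). Glul, glutamine synthetase, read 597 in the input and 357 and 153 on IgG on 1 probe set (-1.23 ± 0.44) and 4422, 5593 and 4030 on the other (0.10). Atp1b2, an astrocytic sodium pump subunit, read 2665 in the input and 968 and 1406 on IgG (-1.17), and Gjb6, connexin 30, read 887 in the input and 324 and 570 on IgG (-0.99). Slc1a2, the other main glutamate transporter, had 2 of 3 probe sets above the input on both arrays, so the list did not move as a block.

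Microglial markers had 2 probe sets above and 10 below among 21, with a median of -0.24 (-0.41 and -0.24 on the separate arrays, and -0.11 with dim probe sets included). P2ry12, a purine receptor of resting microglia, read 64.5 in the input and 12.4 and 30.3 on IgG (-0.88 ± 0.41). Cd68, C1qb and Csf1r lay at -0.76, -0.70 and -0.61 on their lowest probe sets. Oligodendrocyte markers had 8 above and 13 below among 31, with a median of -0.18. Gpr37, a receptor of myelinating cells, read 444 in the input and 156 and 206 on IgG (-1.17 ± 0.41, limma adjusted p = 0.345), and the myelin genes Mag, Mal and Ermn lay at -1.0, -0.98 and -0.84. Mbp, myelin basic protein, divided: 4 of its 8 probe sets were above the input on both arrays and 2 below. The 4 above it ran from 0.58 to 0.68 and read 7102 to 9266 in the input. Precursor markers (6 probe sets) had a median of -0.15, endothelial and mural markers (12) -0.26, and choroid plexus, ependymal and blood markers (10) -0.18. With dim probe sets included, the precursor median turned to 0.03 and the endothelial and mural median moved to -0.01, and the latter was -0.36 and -0.08 on the separate IgG arrays, while the choroid, ependymal and blood median moved to -0.06 and was 0.39 on IgG array 2 alone. Ttr, the choroid plexus transthyretin, was the bright exception, at 8913 in the input and 15961 and 18336 on IgG on 1 probe set (0.94). Across these 6 lists limma called 0 of 119 probe sets, with 3 higher (2.52%) and 11 lower (9.24%) at an unadjusted p below 0.05, beside 6.59% and 2.94% of all tested probe sets.

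Fc receptor and immunoglobulin genes were examined because the beads carried IgG. Of 11 tested probe sets from 5 genes, 1 was above the input on both arrays and 8 below, with a median of -0.31. Limma called 0 of them, and 2 were lower at an unadjusted p below 0.05. For comparison, 32.71% of all tested probe sets lay above the input on both arrays and 31.98% below it. By limma, 2.94% of all tested were lower at an unadjusted p below 0.05. Fcgr2b, the inhibitory Fc receptor, read 69.9 in the input and 20.1 and 24.9 on IgG (-0.90), and Ighm, the heavy chain of IgM, read 241 in the input and 125 and 126 on IgG (-0.79). The median turned to 0.01 when dim probe sets were included.

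Synaptic and neuronal messages lay on both sides of the input. Synaptic vesicle genes had 19 of 60 probe sets above and 22 below the input on both arrays. Of all tested probe sets, 32.71% were above it on both and 31.98% below. The list median was -0.05, and it was 0.05 on IgG array 1 alone. In the list 2 probe sets were at least 2-fold higher on both (3.33%), beside 2.08% of all tested. Cplx2, the release regulator complexin 2, had the largest difference, at 315 in the input, 5526 on IgG array 1 and 1079 on IgG array 2 (2.84 ± 0.86, limma adjusted p = 0.253), while its other probe sets lay at 0.35 and -0.55. Both IgG arrays were high for that probe set, but they differed more from each other than the lower of them did from the input. Syt1, the calcium sensor of release, read 6.55 in the input and 91.2 and 60.6 on IgG on 1 of 4 probe sets (1.47). This Syt1 probe set passed the brightness filter only through the pulldown arrays. Rims1, a protein of the active zone, read 244 in the input and 744 and 424 on IgG (1.11). Sh3gl2, the endocytic protein endophilin A1, lay on the other side, at 484 in the input and 150 and 236 on IgG (-1.22).

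Postsynaptic genes had 19 of 49 probe sets above and 7 below, beside the same 32.71% and 31.98% of all tested. Their median was 0.11 (0.47 and 0.06 on the separate arrays). They had 3 gains of at least 2-fold on both arrays (6.12%), beside 2.08% of all tested. Dlgap2, a scaffold protein, read 72.9 in the input and 808 and 247 on IgG (2.21 ± 0.60, limma adjusted p = 0.187). Grin2b, an NMDA receptor subunit, read 55.8 in the input and 157 and 248 on IgG (1.39), and Grm5, a metabotropic glutamate receptor, read 74.8 in the input and 247 on both IgG arrays (1.38 ± 0.34, limma adjusted p = 0.139). Messages carried into dendrites had 21 of 40 above and 9 below, with a median of 0.19 (0.42 and 0.12 on the separate arrays). Ntrk2, the BDNF receptor, read 7.62 in the input and 93.0 and 51.9 on IgG (1.37). The Ntrk2 probe set passed the brightness filter only through the pulldown arrays. Camk2a, a calcium-dependent kinase, and Map2, a dendritic microtubule protein, lay at 1.34 and 1.25 on their highest probe sets. Shank3, a scaffold on both of these lists, read 238 in the input and 649 and 450 on IgG (1.09).

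Excitatory neuron markers (27 probe sets) had a median of 0.04 and interneuron markers (15) of -0.13. Among the latter Gad1, which makes GABA, read 111 in the input and 56.3 and 3.88 on IgG on a dim probe set (-1.35) but 3234, 3193 and 3008 on the bright one. Immediate early genes (29) had a median of 0.11, which lay at -0.04 on IgG array 2 alone. Limma called 0 of the 220 probe sets in these 6 synaptic, neuronal and activity lists, counting shared probe sets in each, with 19 higher (8.64%) and 5 lower (2.27%) at an unadjusted p below 0.05, near the shares of all tested probe sets (6.59% and 2.94%).

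Housekeeping messages had no common direction. Of 37 probe sets from 18 reference genes, 12 were above and 13 below on both arrays, with a median of -0.09 that turned to 0.03 when dim probe sets were included and was 0.08 on IgG array 1 and -0.21 on IgG array 2. Eef1a1, a translation factor, read 8019 in the input and 7889 and 6950 on IgG, and Pgam1, a glycolytic enzyme, read 2287, 2245 and 2246. Actb, cytoplasmic actin, had probe sets at 0.71 and -0.47. Pgk1, another glycolytic enzyme, had the largest difference, at 1640 in the input and 5261 and 2912 on IgG on 1 of 3 probe sets (1.24 ± 0.51, limma adjusted p = 0.455).

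The lists of ribosomal protein, oxidative phosphorylation, small nucleolar RNA host and histone genes separated the IgG arrays from each other. Ribosomal protein genes had a median of 0.56 over 83 probe sets, made up of 0.02 on IgG array 1 and 1.16 on IgG array 2, and 75 of the 83 were higher on array 2 than on array 1, beside 44.2% of all tested probe sets. Rpl41 read 1860 in the input, 2563 on IgG array 1 and 12078 on IgG array 2 (1.57 ± 0.64, limma adjusted p = 0.450). Genes of oxidative phosphorylation had a median of 0.24 over 145 probe sets, made up of -0.20 and 0.77, and 127 of the 145 were higher on array 2. Cox6c, a subunit of cytochrome oxidase, read 3688 in the input and 7284 and 11739 on IgG (1.32 ± 0.39), whereas Sdhc, a subunit of succinate dehydrogenase, read 580 in the input and 176 and 304 on IgG (-1.21). Hosts of small nucleolar RNAs, which are spliced noncoding transcripts, were divided in the same direction, with a median of 0.47 over 16 probe sets made up of 0.07 and 0.85. Gas5 read 1093 in the input and 1334 and 2526 on IgG (0.73), and Snhg6 read 891, 982 and 3509 (1.04). Histone genes (18 probe sets) had a median of 0.05, made up of -0.30 and 0.40. No probe set of these 4 lists was at least 2-fold higher on both arrays or called by limma, with 26 higher (9.92%) and 4 lower (1.53%) at an unadjusted p below 0.05, beside 6.59% and 2.94% of all tested probe sets. Of the 19 short structured RNAs sought by name, 0 were found among the annotated probe sets, so they are not analysed here.

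**Figure D5:**
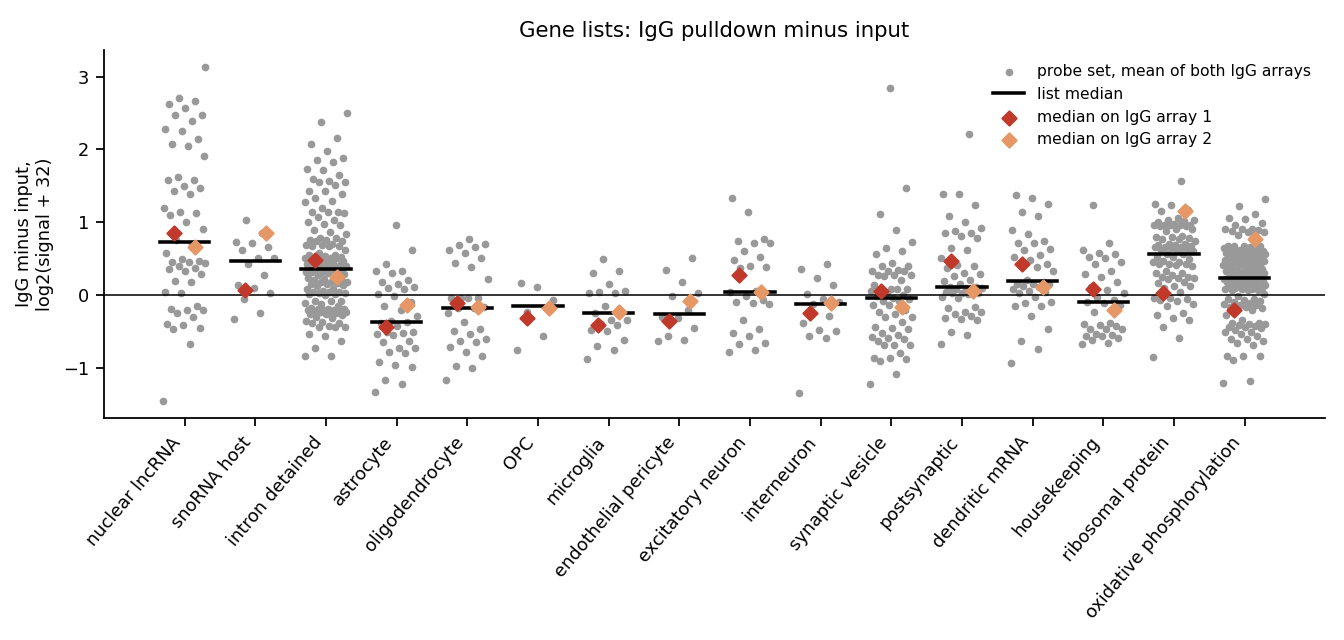
IgG minus input on the log2(signal + 32) scale (vertical axis) for the tested probe sets of 16 gene lists, each grey point the mean of both IgG arrays for 1 probe set. Black bars are list medians and red and orange diamonds are the medians on IgG arrays 1 and 2; the diamonds lie apart for the ribosomal protein (0.02 and 1.16) and oxidative phosphorylation (-0.20 and 0.77) lists.

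The IgG arrays carried different suffixes in their titles, whose meaning is not given in the sources used here. IgG array 1 shared its suffix with the input array, so its differences are those within a suffix, though the pooled values include them. The list medians had the same sign as the pooled ones for the long noncoding (0.85), intron-detained (0.48), astrocyte (-0.43) and microglial (-0.41) lists, among others. The sign was opposite for oxidative phosphorylation (-0.20 against 0.24 pooled) and histone genes (-0.30 against 0.05). It was also opposite for housekeeping (0.08 against -0.09) and synaptic vesicle genes (0.05 against -0.05). IgG array 2 had no input array of its own suffix.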

How the data were processed

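The deposited series table held 1 linear intensity per probe set and array. The software, the background correction and the genome build behind these intensities are not given in the sources used here. On every array the trimmed mean without the lowest and highest 2% was 150.0, so the authors had scaled the deposited intensities. There were no detection calls. The number of arrays limits the precision.

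Intensities were transformed here as log2(signal + 32). Using limma 3.58.1 (R 4.3.3, eBayes with a trend), group means were estimated from all 6 arrays, and the contrast IgG minus input was adjusted by Benjamini-Hochberg over 22518 probe sets at a threshold of 0.05. A call also required both IgG arrays on the same side of the input. The fit had 3 residual degrees of freedom and a prior of 9.09. The single input array was assumed to vary like the others. The steps were tested on simulated data.

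The platform annotation, which can be old, gave 34945 probe sets 1 gene symbol, 932 several and 9160 none. Only the first were named. Gene types came from a RefSeq table of GRCm38.p6, in which 34741 were found. The genes named are Elavl4, the 15 largest called rises, the 15 largest called losses filled up by lowest p, 4 members of each list with the largest difference, and all long noncoding members. Other names illustrate how a list or gene divides and were chosen after their values were seen. The members and the 21 lists were chosen with earlier results of these data known. Alternatives were 2 other pseudocounts, 3 other scalings, no filter, other folds, a replicate block, array weights, only the IgG and input arrays, and leaving out arrays. The title suffixes were not treated as pairs. Deviations from group means of same-suffix arrays correlated at -0.04, -0.30 and 0.31. Deviations within a group cancel out, so these correlations cannot exclude an effect that goes with the suffix.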

Additional observations from a re-analysis of the deposited data

Results flagged for a closer look

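Control probe sets that take no part in the comparison gave signals on the IgG arrays above those of the input. Poly(A) spikes are bacterial transcripts added to the RNA before labelling, and their 3′ probe sets differed from the input by 3.273 (dap), 3.812 (lys), 2.94 (phe) and 3.873 (thr) log2 units on the mean of both IgG arrays. Over all 8 such probe sets the means were 4.25 on IgG array 1 and 2.92 on IgG array 2, compared with 0.88, 2.34 and 0.81 on the HuD arrays.

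The 3 control probe sets for mouse B1 and B2 repeats, short interspersed elements found in many introns and noncoding transcripts, lay 1.155 (B1), 1.075 and 1.316 (B2) above the input. On the HuD arrays these repeats averaged 0.33, 0.88 and 0.77 above the same input array. The part of either kind of control in the results was not tested.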

How the results depend on the processing

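No named probe set that had been called changed sign under the other settings. Only the other scalings and the replicate block could have changed a sign. Centring on the hybridization controls, chosen after seeing the data, turned the direction of the counts. The main counts were 53 called higher, 1 called lower, 468 at least 2-fold higher on both IgG arrays and 94 lower. A pseudocount of 16 gave 72, 1, 812 and 139, and one of 64 gave 29, 1, 189 and 49. Quantile normalization gave 22 and 1 called, and 75th percentile centring 104 and 1. Testing all probe sets gave 0 and 0 called (limma, 3326 at an unadjusted p below 0.05). The title suffix as replicate block gave 0 and 0 (1907 unadjusted). Array weights gave 50 and 1, and the 3 arrays of IgG and input alone 115 and 3. Leaving out 1 array at a time gave 0 to 515 called higher and 0 to 61 called lower, the extremes coming from the removal of HuD array 1, HuD array 2 or IgG array 2. With a single IgG array, 890 to 1576 were at least 2-fold higher and 642 to 790 lower. A fold of 1.5 gave 1498 higher and 871 lower, and a fold of 4 gave 39 and 1. Centring on the hybridization controls gave 0 called higher and 1829 lower, and 9 and 11986 at least 2-fold away, with 53 of the 53 main rises still above the input. List medians of long noncoding, intron-detained, ribosomal protein, astrocyte, oligodendrocyte and microglial genes kept their sign in the other alternatives. Those of choroid and blood, Fc receptor, histone, housekeeping, immediate early, precursor, oxidative phosphorylation and synaptic vesicle genes changed sign in at least 1, and the cause was not tested.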
